A study of Mus musculus with 6 samples.

Results

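The mRNA levels of 9 complement genes were examined in mouse macrophages that had been cultured with cartilage fragments. The genes were chosen by symbol from the 24394 gene symbols of the 6 deposited libraries, and comprised the classical pathway genes C1qa, C1qb, C1qc and C4b, the alternative pathway genes C3, Cfb and Cfp, and the anaphylatoxin receptor genes C3ar1 and C5ar1. The libraries came from bone marrow-derived macrophages (BMMs) of C57BL/6 mice at postnatal day 28, grown in macrophage colony-stimulating factor (50 ng/ml) for 7 days in medium with heat-inactivated serum. In 3 cultures the BMMs then received cartilage fragments at a ratio of 5 fragments to 1 macrophage for 24 h (stimulated BMMs), and 3 cultures were controls. The fragments were crushed femoral head cartilage of the same mice as the marrow. Whether the cultures of a group came from separate mice is not stated, so the p-values measure the spread between these libraries, which may be technical. BMMs differ from the resident macrophages of a joint, and whole cultures were lysed, so fewer cells of a type and less RNA per cell cannot be told apart.

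Complement is a cascade of plasma and cell-derived proteins that marks particles for uptake and recruits leukocytes. In the classical pathway C1q, assembled from the chains encoded by C1qa, C1qb and C1qc, binds a target, and its proteases cleave C4 and C2. In the alternative pathway, factor B (Cfb) binds to activated C3 and forms the C3 convertase, which properdin (Cfp) stabilises. Cleavage of C3 and C5 releases the anaphylatoxins C3a and C5a, which act on myeloid cells through the receptors C3AR1 and C5AR1. Most plasma complement comes from the liver, whereas C1q and properdin are made largely by myeloid cells.

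Promoter windows from 250 bases before to 50 bases after the start site were taken from RefSeq (GRCm38.p6), which held 6 of the 9 genes. No window was available for C1qa, C4b or Cfb, the gene with the largest rise. The windows of C3, Cfp and C3ar1 are shown because C3 had the second largest rise of the genes, Cfp shares its pathway, and the level of C3ar1 lay lower in the stimulated BMMs. All windows lie on the minus strand and read 5′ to 3′, at chr17:57228087-57228386 for C3, chrX:20931506-20931805 for Cfp and chr6:122856108-122856407 for C3ar1. Capitals mark matches, on either strand, to a kappa B type motif of 10 bases (G in the first 3, C in the last 2, any base between) and, in C3 alone, to the C/EBP type motif TTGCNNAA.
C3: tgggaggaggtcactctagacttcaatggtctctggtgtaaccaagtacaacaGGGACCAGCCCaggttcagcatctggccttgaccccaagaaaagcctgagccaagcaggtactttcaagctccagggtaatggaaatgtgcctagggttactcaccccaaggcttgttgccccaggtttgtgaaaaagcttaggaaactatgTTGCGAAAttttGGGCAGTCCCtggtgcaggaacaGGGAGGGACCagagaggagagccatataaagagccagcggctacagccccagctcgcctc
Cfp: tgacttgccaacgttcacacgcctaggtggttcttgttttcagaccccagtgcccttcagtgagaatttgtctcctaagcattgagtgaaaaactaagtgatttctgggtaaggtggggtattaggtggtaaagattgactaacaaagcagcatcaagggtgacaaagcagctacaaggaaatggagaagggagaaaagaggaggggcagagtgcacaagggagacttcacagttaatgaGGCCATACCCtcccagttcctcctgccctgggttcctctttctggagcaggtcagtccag
C3ar1: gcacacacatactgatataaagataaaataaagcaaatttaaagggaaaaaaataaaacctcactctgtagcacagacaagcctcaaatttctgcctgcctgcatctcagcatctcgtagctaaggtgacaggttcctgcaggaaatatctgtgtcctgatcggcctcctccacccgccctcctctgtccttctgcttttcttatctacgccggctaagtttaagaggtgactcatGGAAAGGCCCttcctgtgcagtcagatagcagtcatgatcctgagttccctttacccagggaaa
The C3 window held 4 kappa B type matches, of which the 2 farthest from the start overlap and are printed as 1 run, and 1 C/EBP type match that began 45 bases before the start. Cfp and C3ar1 held 1 kappa B type match each, at 10 and 14 bases before the start. The windows of C1qb and C1qc also held kappa B type matches, 2 overlapping ones each, and that of C5ar1 held none. A kappa B type match was present in 50.8% of all 32851 promoter windows and a C/EBP type match in 10.8%, so such matches are common. The motifs TTCNNNGAA (STAT type, in 8.30% of windows) and an interferon response type motif (GAAA repeated after 2 bases of any kind, in 3.44%) had no match in the 6 windows.

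Levels are fragments per kilobase of transcript and 1000000 fragments (FPKM), summed over the transcripts of a gene in a library. Cufflinks had also assembled transcripts of its own in each library, and those that shared a gene identifier with only 1 gene symbol were added to that gene, because they hold reads that its reference transcripts then lack. Values on the reference transcripts alone are the rows that carry the gene's symbol, and are given where the totals differ. Each library rested on 699237 to 776371 fragments, estimated from the deposited coverage. This is far below the read number that the methods give, the difference was not resolved, and the fragment numbers, counting intervals and detection limits rest on the estimate. Fragments per gene were estimated likewise and given per 1000000 fragments of the library (FPM, the scaled fragments), which do not weight a short assembled transcript more than a long one. Groups were compared with limma on log2(FPKM + 0.1). The 10393 genes whose mean over all libraries reached 1 FPKM were tested, and an adjusted p (Benjamini-Hochberg) under 0.05 was called.

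The libraries carried the marks of macrophages, since all 8 macrophage markers were present, with summed levels of 29520 to 39241 FPKM in control and 30119 to 40366 FPKM in stimulated BMMs. Lyz2 made up most of this sum, and of the 8 markers Adgre1 (log2 fold change 0.59, adjusted p = 0.00965) and Cd14 (0.63, adjusted p = 0.0388) were called higher, joined by Itgam in scaled fragments. Of the 9 chondrocyte markers in the files, 5 (Matn1, Matn3, Col9a1, Hapln1 and Lect1) were at 0 in every library, and their sum was 1.15 to 3.28 FPKM in control and 0.985 to 1.59 FPKM in stimulated BMMs. The 6 B and T cell markers were at 0, and the 5 dendritic cell markers summed to at most 2.36 FPKM. The 7 neutrophil markers summed to 803 to 914 FPKM in control and 731 to 1103 FPKM in stimulated BMMs. The sum of the 6 fibroblast markers, carried by Col1a1 and Col1a2, was 155 to 169 FPKM in control and 103 to 119 FPKM in stimulated BMMs. None of the 4 that were tested was called in FPKM, Col1a1 and Col1a2 were called lower in scaled fragments (adjusted p = 3.14e-06 and 0.00368), and the means of Dcn and Pdgfra were not lower. The part of the marker genes in the results on complement genes was not tested. The female-specific transcript Xist had 271 to 315 fragments in every library and Y-linked genes had 0, whereas the mice are described as male.

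Among the 9 complement genes, Cfb and C3 rose in the stimulated BMMs, and no member was called lower. These 2 were the ones called of 8 tested, with 0.308% of all 10393 genes called higher and 0.0577% called lower. The median log2 fold change was 0.41 over the 8 tested members and 0.00 over all genes tested. The groups did not overlap in 5 members, 4 of them higher and 1 lower in the stimulated libraries, against 9.04% and 6.89% of all genes. The members were chosen with earlier results of these data known. The comparisons with all genes in this paragraph therefore describe the members and are not a test of them as a set. C4b was the member that was not tested. In scaled fragments (FPM) 4 members were called higher (Cfb, C3, C1qa and Cfp), with 1.57% of all genes called higher. On reference transcripts alone Cfb was the member called, against 0.145% of all genes in FPKM and 0.0962% in scaled fragments.

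**Figure D1:**
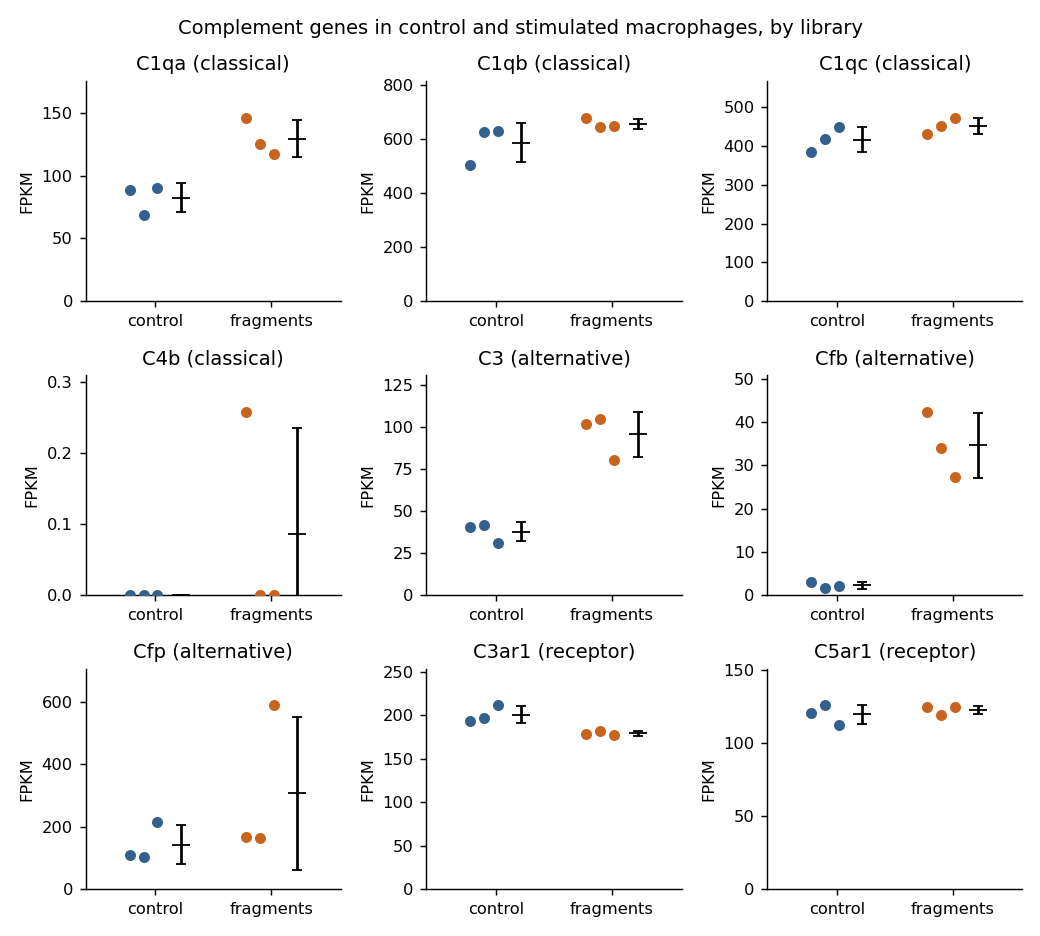
FPKM of the 9 genes by library in control (blue) and stimulated (orange) BMMs, with bars for the mean and SD of 3 libraries and a separate linear axis for each gene. C3 and Cfb are separated between the groups, C1qb, C1qc and C5ar1 lie at like heights, and 1 stimulated library of Cfp stands at 590 FPKM.

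In control BMMs the order of mean levels was C1qb, C1qc, C3ar1, Cfp, C5ar1, C1qa, C3, Cfb and C4b. The range of Cfp overlapped those of its neighbours C3ar1 and C5ar1, and the ranges of the other neighbours did not overlap. In stimulated BMMs the order was C1qb, C1qc, Cfp, C3ar1, C1qa, C5ar1, C3, Cfb and C4b. There the range of Cfp overlapped those of C1qc and C3ar1, and that of C1qa overlapped that of C5ar1. The place of Cfp rests on 1 library at 590 FPKM, and on reference transcripts its mean was 144 FPKM, below the 179 FPKM of C3ar1. Thus C1qb and C1qc led in both groups, and Cfb, at 2.26 FPKM in control BMMs, came up to 34.7 FPKM while keeping its place below C3.

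Cfb (chr17:34856374-34862514, minus strand, mm10), the serine protease zymogen of the alternative pathway C3 convertase, had the largest fold change of the members. Its level was 3.07, 1.58 and 2.14 FPKM in the control libraries and 42.5, 34.1 and 27.3 FPKM in the stimulated libraries. Every stimulated library was far above every control library. The mean rose from 2.26 ± 0.754 to 34.7 ± 7.58 FPKM (SD, n = 3), with a log2 fold change of 3.90 (SE 0.294, adjusted p = 0.00168).
The control level rested on 6, 3 and 4 fragments, against 81, 62 and 48 in the stimulated libraries. The ratio of the summed fragments per library fragment was 15.4, with an exact 95% interval of 8.82 to 29.5 that covers counting error only. Cfb passed the threshold in all 26 alternatives, with adjusted p-values up to 0.0271.
Its 2 reference transcripts, NM_008198 of 2747 bases and NM_001142706 of 2743 bases, span the same 18 exons. Cufflinks put the reference fragments of stimulated replicates 1 and 2 on NM_008198 and those of stimulated replicate 3 on NM_001142706, so the split between them is uncertain and the sum is used. An assembled transcript added 9.68 FPKM in stimulated replicate 1.

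C3 (chr17:57203967-57228136, minus strand, 41 exons, NM_009778), the component on which all complement pathways converge, was the other member that rose. The control libraries held 40.3, 42.0 and 31.1 FPKM and the stimulated libraries 101.9, 104.9 and 80.2 FPKM. The lowest stimulated library was well above the highest control library. The mean went from 37.8 ± 5.84 to 95.7 ± 13.4 FPKM (SD, n = 3), which is a log2 fold change of 1.34 (SE 0.165, adjusted p = 0.0193).
No assembled transcript was involved, and the gene had 114 to 156 fragments per control library and 276 to 377 per stimulated library. On scaled fragments the log2 fold change was also 1.34 (adjusted p = 3.42e-06). In FPKM the call was lost without control replicate 1 (adjusted p = 0.0622), stimulated replicate 1 (0.140) or stimulated replicate 2 (0.107), without trend and robust (0.178), and when reference transcripts alone were fitted for all genes (0.106, and 0.0755 in scaled fragments), while the fold change of C3 stayed between 1.21 and 1.46 on the log2 scale when libraries were left out.

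Cfp (chrX:20925535-20931524, minus strand, 9 exons, NM_008823), which encodes properdin, the stabiliser of the alternative C3 convertase, had levels that depended on the assembled transcripts. In FPKM it had 107, 104 and 215 in the control libraries and 168, 163 and 590 in the stimulated libraries. The groups overlapped, and the highest library of each group stood apart from the other two. The means of 142 ± 63.4 and 307 ± 245 FPKM (SD, n = 3) gave a log2 fold change of 0.92 (SE 0.631, adjusted p = 0.723).
On the reference transcript alone, control replicate 3 had 15.0 FPKM in place of 215. Assembled transcripts of 575 and 1279 bases held 87.7% of its Cfp fragments. In stimulated replicate 3 an assembled transcript of 262 bases that touched 1 of the 9 exons was given 471.5 FPKM and held 26.3 estimated fragments, 19.7% of those of the gene.
In scaled fragments Cfp had 140.0, 135.9 and 159.4 FPM in the control libraries and 218, 211 and 191 FPM in the stimulated libraries. On this scale every stimulated library was above every control library. The mean was 145 ± 12.5 against 207 ± 14.0 FPM (SD, n = 3), a 1.42-fold rise with a log2 fold change of 0.51 (SE 0.112, adjusted p = 0.0054).
That call was lost without control replicate 2 (adjusted p = 0.0523) or stimulated replicate 1 (0.0710). The fragment number of so short a transcript depends on the fragment length SD assumed. With 40 bp in place of 80 bp, stimulated replicate 3 had 178 FPM in place of 191. The log2 fold change of Cfp was then 0.47 and was still called by limma (adjusted p = 0.0144). Stimulated replicate 3 would fall to 153 FPM, inside the control range, if its short assembled transcript alone were left out. With assembled transcripts left out of every library, control replicate 3 fell to 19.6 FPM. All stimulated libraries then lay above the controls, and the log2 fold change of 1.34 was not called by limma (adjusted p = 0.802).

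**Figure D2:**
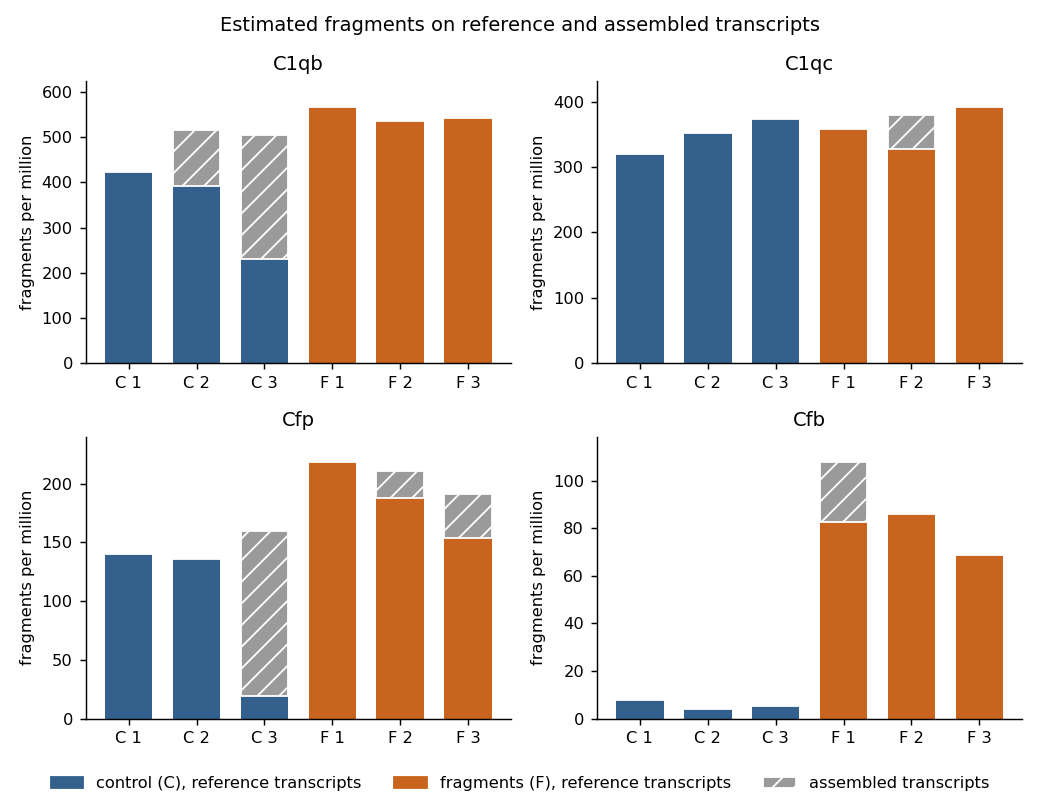
Estimated fragments per 1000000 library fragments (FPM) on reference transcripts (solid) and on assembled transcripts (hatched grey) of C1qb, C1qc, Cfp and Cfb in control libraries C 1 to C 3 and stimulated libraries F 1 to F 3. In control replicate 3 the hatched part is most of the bar for Cfp (87.7% of its fragments) and for C1qb (54.5%).

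The C1q genes lie side by side on chromosome 4, each with 3 exons on the minus strand, and encode the chains of one protein. C1qa (chr4:136895916-136898844, NM_007572) had 88.9, 68.9 and 89.8 FPKM in the control libraries and 146, 125 and 117 FPKM in the stimulated libraries. All 3 stimulated libraries were above the controls. The mean of 82.5 ± 11.8 against 129 ± 14.9 FPKM (SD, n = 3) gave a log2 fold change of 0.65 (SE 0.139), which did not pass the threshold in FPKM (adjusted p = 0.129) and passed it in scaled fragments (adjusted p = 0.0143). With 45 to 94 fragments per library, C1qa had the fewest of the C1q genes, and its call in scaled fragments was lost without control replicate 2 (adjusted p = 0.138), stimulated replicate 1 (0.161) or stimulated replicate 2 (0.0604).

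C1qb (chr4:136880145-136886177, NM_009777) was the most abundant member. It had 503, 626 and 632 FPKM in the control libraries and 680, 644 and 647 FPKM in the stimulated libraries. The stimulated libraries lay just above the controls. The mean was 587 ± 72.6 against 657 ± 19.6 FPKM (SD, n = 3), with a log2 fold change of 0.17 (95% interval -0.04 to 0.38, adjusted p = 0.626).
On the reference transcript alone the control libraries had 503, 462 and 274 FPKM, and the ratio of means was 1.59 in place of 1.12. The assembled transcripts of C1qb were 960 bases long in control replicate 2 and 990 bases long in control replicate 3, and held 23.8% and 54.5% of the fragments of the gene there. No assembled transcript of C1qb was present in a stimulated library. Neither value passed the threshold (adjusted p = 0.671 on the reference transcript).

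C1qc (chr4:136889802-136892914, NM_007574) had 384, 418 and 448 FPKM in the control libraries and 432, 452 and 473 FPKM in the stimulated libraries. The groups overlapped through control replicate 3 alone, whose value Cufflinks had marked with the status LOWDATA. The mean was 416 ± 31.8 against 452 ± 20.3 FPKM (SD, n = 3), with a log2 fold change of 0.12 (95% interval -0.05 to 0.29, adjusted p = 0.674). C4b (chr17:34728381-34743897, 41 exons, NM_009780), the C4 gene whose product C1 cleaves, was at 0 in 5 libraries and had 1 fragment, 0.258 FPKM, in stimulated replicate 1. A count of 0 allows up to 3 fragments per library, 0.748 to 0.830 FPKM, and the single fragment lies within this limit, so a difference in C4b was not detectable at this depth. Its near-identical copy C4a was at 0 in all libraries.

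**Figure D3:**
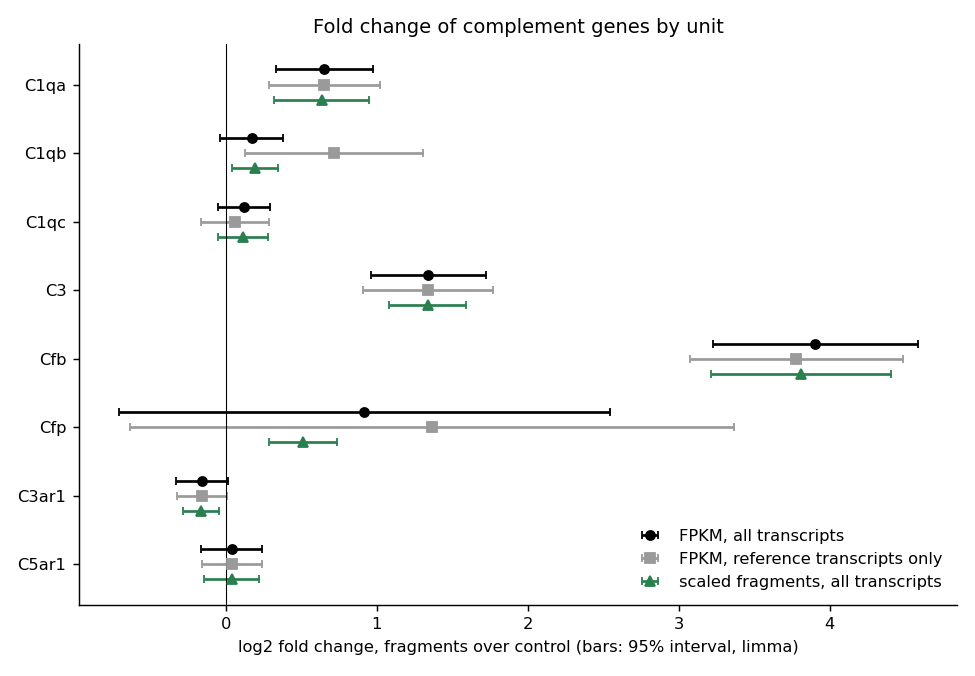
Log2 fold change (stimulated over control BMMs) of the 8 tested genes, with 95% intervals from limma, in FPKM over all transcripts (black), FPKM on reference transcripts only (grey) and scaled fragments (green). The 3 estimates nearly coincide for C3 and the receptors, and differ most for C1qb and Cfp.

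Neither receptor gene passed the threshold. C3ar1 (chr6:122847140-122856157, minus strand, 2 exons, NM_009779), which encodes the C3a receptor, had 193, 197 and 211 FPKM in the control libraries and 179, 182 and 177 FPKM in the stimulated libraries. All stimulated libraries were below the controls. The mean was 201 ± 9.60 against 179 ± 2.66 FPKM (SD, n = 3), with a log2 fold change of -0.16 (95% interval -0.33 to 0.01, adjusted p = 0.576), and scaled fragments gave the same log2 value (adjusted p = 0.185).

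C5ar1 (chr7:16246743-16259540, minus strand), which encodes the C5a receptor, had 120.5, 125.7 and 112 FPKM in the control libraries and 124.5, 119.3 and 124.3 FPKM in the stimulated libraries. The groups overlapped. The mean was 119 ± 6.82 against 123 ± 2.94 FPKM (SD, n = 3), with a log2 fold change of 0.04 (95% interval -0.16 to 0.24, adjusted p = 0.921). Its second transcript, NM_001173550, was given 0 FPKM in control replicate 1 and stimulated replicate 1 and 58.6 FPKM in stimulated replicate 3, so the split between its transcripts varied more within a group than their sum, whose SD was at most 6.82 FPKM.

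Summed by pathway, the classical genes held 976, 1113 and 1169 FPKM in control and 1258, 1221 and 1237 FPKM in stimulated BMMs, a ratio of means of 1.14. That ratio was 1.34 on reference transcripts alone. The alternative pathway genes held 346, 347 and 318 FPM in control and 827, 811 and 654 FPM in stimulated BMMs, a ratio of 2.27, and their FPKM sums gave 2.40. The receptor genes held 314, 322 and 324 FPKM in control and 303, 301 and 301 FPKM in stimulated BMMs, a ratio of 0.943. Thus the alternative pathway sum had the highest ratio of the classes, and the receptor sum was the one that lay lower in the stimulated libraries. Single genes weighed heavily in both sums. C3, which all pathways share, went from a mean of 186 to 470 FPM, Cfp from 145 to 207 FPM and Cfb from 5.72 to 87.5 FPM. Of the receptors, C3ar1 had a ratio of mean FPKM of 0.894 and C5ar1 one of 1.03. The class sums are a description without a test.

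Ratios between genes of the same library, which do not depend on its scaling, were compared by an exact two-sided permutation test, whose smallest p with 3 against 3 libraries is 0.1. Over the 5 ratios chosen, the smallest adjusted value of the exact p is 0.125. The log2 ratio of Cfb to C3 was -4.10 ± 0.549 in control and -1.48 ± 0.190 in stimulated BMMs (exact p = 0.1), so Cfb changed by more than C3, by 2.62 on the log2 scale. The ratio of C3 to C1qb was higher by 1.17 (exact p = 0.1), and by 0.62 on reference transcripts (exact p = 0.1). The ratio of C5ar1 to C3ar1 was higher by 0.20 (exact p = 0.1). In these ratios every stimulated library was above every control library.
The ratio of C1qa to C1qb was higher by 0.48 (exact p = 0.1) but lay at -0.06 on reference transcripts (exact p = 1). The ratio of C1qc to C1qb differed by -0.05 (exact p = 0.6) but by -0.66 on reference transcripts (exact p = 0.1). The balance of the C1q chains therefore depends on whether assembled transcripts are counted.

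**Figure D4:**
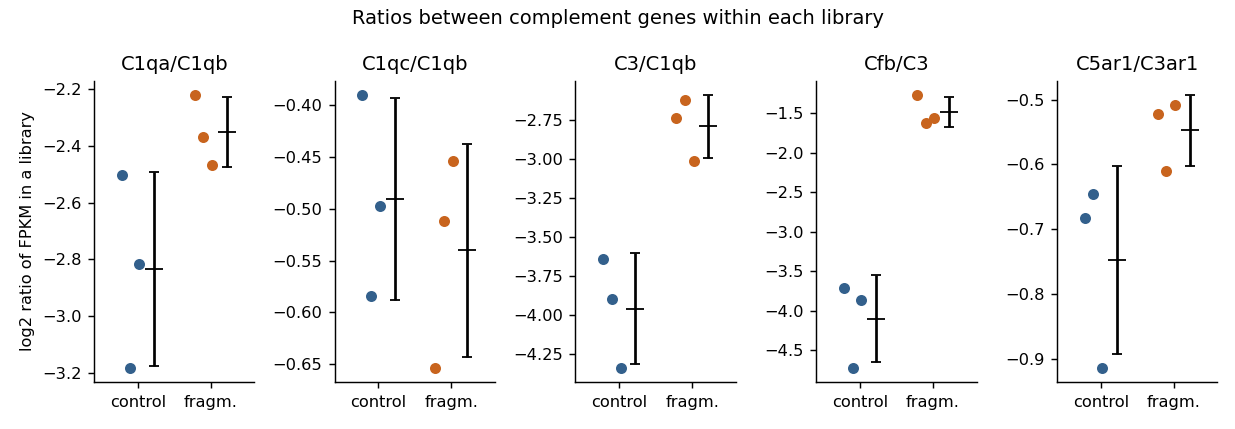
Log2 ratio of the FPKM of gene pairs within a library, for control (blue) and stimulated (orange) BMMs, with the mean and SD of 3 libraries and an axis per pair that does not start at 0. The ratio of Cfb to C3 differs most between the groups, by 2.62, and that of C1qc to C1qb overlaps.

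Of 48 other complement genes, 47 were in the files and 15 passed the filter, while 21 were listed at 0 in every library. None of the 15 was called in FPKM by limma, 4 had an unadjusted p under 0.05 (against 9.19% of all genes tested), and 2 were called higher in scaled fragments (against 1.57%). Their median log2 fold change was 0.16. This list too was chosen with earlier results of these data known, so these shares are a description and not a test of it. The genes at 0 included Hc, the gene of C5 whose fragment C5AR1 binds, Cfd, the protease that activates factor B, and Cfi, the protease that inactivates C3b. As for C4b, a 0 at this depth means not detected and does not show absence.

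Among the genes that start the classical and lectin pathways, 4 of 14 were tested. C1ra, a gene of the protease C1r, had 6.10, 3.92 and 2.92 FPKM in the control libraries and 9.97, 8.49 and 9.05 FPKM in the stimulated libraries. All its stimulated libraries were above the controls, but the log2 fold change of 1.13 did not pass the threshold (adjusted p = 0.252). Its paralog C1rb, which may share reads with it, went from a mean of 1.12 to 3.43 FPKM (log2 fold change 1.79, adjusted p = 0.448). C2, the neighbour of Cfb, had 0.533 to 5.57 FPKM in control and 0.593 to 1.15 FPKM in stimulated BMMs. Fcna, the gene of ficolin A, had a log2 fold change of 0.68 (adjusted p = 0.753), and C8g, a gene of the terminal component C8, one of -0.25 (adjusted p = 0.926).

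Of the 15 regulators 2 were tested, and neither passed the threshold. Cr1l, a membrane regulator of the C3 convertase, had 38.8, 47.0 and 42.2 FPKM in the control libraries and 45.2, 44.8 and 49.7 FPKM in the stimulated libraries. The groups overlapped, with a log2 fold change of 0.13 (95% interval -0.18 to 0.43, adjusted p = 0.807). Cd59a, an inhibitor of the membrane attack complex, was lower in level, at a mean of 4.61 FPKM in control and 5.74 FPKM in stimulated BMMs (adjusted p = 0.788).

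Of the 10 other receptors 8 were tested. Itgam and Itgb2, whose products form complement receptor 3 for cleaved C3b, went from 354 ± 7.98 to 425 ± 18.5 FPKM and from 730 ± 21.5 to 827 ± 18.7 FPKM (SD, n = 3). Their groups did not overlap, with log2 fold changes of 0.26 and 0.18. Neither passed the threshold in FPKM (adjusted p = 0.182 and 0.253), and both passed it in scaled fragments (adjusted p = 0.000178 and 0.0163). Itgax, the alpha chain of complement receptor 4, had a log2 fold change of -0.14. Cd93 and Lrp1 had lower values in every stimulated library, with log2 fold changes of -0.23 and -0.13 (adjusted p = 0.582 and 0.667). C5ar2, the second receptor of C5a, was low, at a mean of 5.12 FPKM in control and 3.63 FPKM in stimulated BMMs (adjusted p = 0.768). C1qbp and Calr, at means of 41.7 and 257 FPKM in control BMMs, had log2 fold changes of 0.18 and 0.16 (adjusted p = 0.769 and 0.593).

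**Figure D5:**
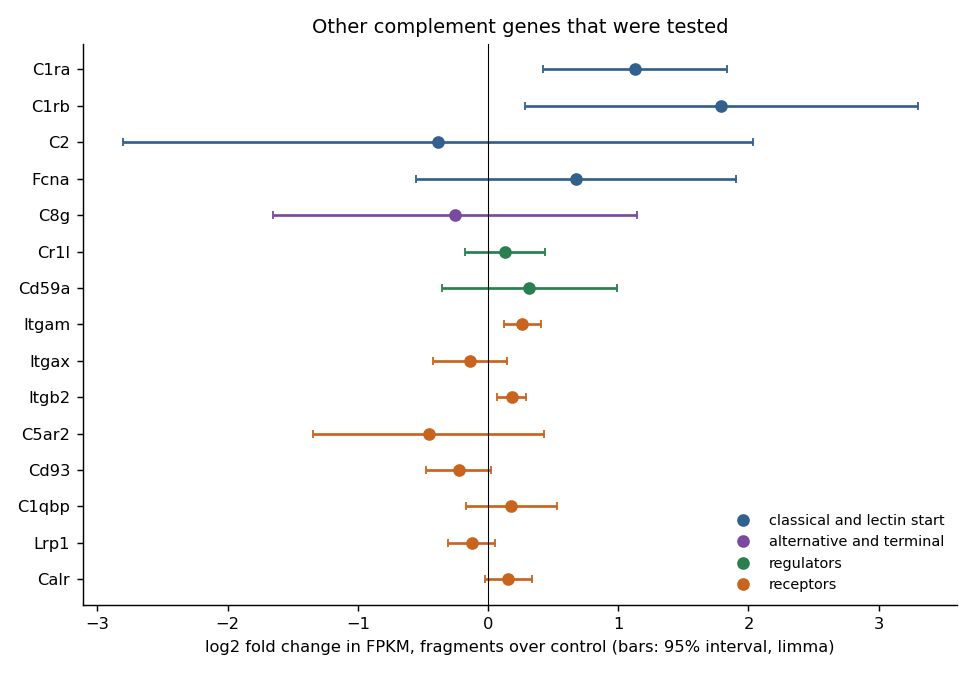
Log2 fold change in FPKM (stimulated over control BMMs) with the 95% interval from limma for the 15 other complement genes that passed the filter, coloured by role. Intervals are narrow for the abundant receptors and wide for genes at a few FPKM such as C2 (0.533 to 5.57 FPKM in control).

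The genes whose levels followed that of C3 most closely over the 6 libraries, among those averaging 10 FPKM or more, were Hp, Marcksl1 and Fpr2, with Pearson correlations of 0.998, 0.998 and 0.993. These are descriptions over 6 libraries that fall into 2 groups. Hp, which encodes the acute-phase protein haptoglobin, had 27.4, 28.2 and 15.5 FPKM in the control libraries and 162, 172 and 122 FPKM in the stimulated libraries. Like C3, Hp was lowest within each group in replicate 3. Fpr2, a formyl peptide receptor gene, had 16.7, 20.9 and 14.9 FPKM in control and 77.1, 77.0 and 50.2 FPKM in stimulated BMMs.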

How the data were processed

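RNA-seq libraries (stranded mRNA, paired-end reads of 100 bp) were aligned to mm10 with TopHat and Bowtie by the authors, who ran Cufflinks per library. Versions are not given in the sources used here. The authors deposited FPKM and coverage per transcript, for reference and assembled transcripts. The methods name TMM, and whether it was applied to the deposited FPKM was not established. The deposited coverage signal has a constant ratio to FPKM within a library, which gave 699237 to 776371 fragments per library. Fragments per transcript were coverage times effective length over 100, with a fragment length SD of 80 bp assumed (40 bp as an alternative added after seeing the data). The mean fragment length of each library was chosen to bring the most low values of single-transcript genes within 0.1 of whole numbers. That share was 95.9% to 96.8%. It was the criterion of the choice, made without the SD, and is not a separate check of the estimates. Because these are estimates from FPKM files, no count model was run. Counting intervals cover counting error only.

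FPKM were summed per symbol and tested with limma 3.58.1 in R 4.3.3 (trend and robust, two-sided) on log2(FPKM + 0.1), a scale that understates the change of low genes. Members and lists were chosen with earlier results of these data known. Named genes were the 9 members, the tested genes of the wider list and the 3 genes most like C3. One further gene of that list is not reported here. In simulated data with 10393 genes, 70% of 100 genes at a log2 change of 1, 100% of 50 at 2 and 42% of 50 at -1 were called. The changed genes all had more control fragments than Cfb or C4b, the spread was the same for every gene, and no assembled transcripts were simulated. These shares therefore do not carry over to Cfb and C4b, or to genes with assembled transcripts such as Cfp and C1qb. Alternatives were pseudocounts of 1 and 0.01, no filter or 5 FPKM, other scalings, reference transcripts only, scaled fragments, no trend, a replicate block and each library left out. Scaled fragments on reference transcripts, with the block or without each library were added after seeing the data. Positions are those of the files with 1 added to each start, and exon numbers are from GENCODE M21.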

Additional observations from a re-analysis of the deposited data

How the results depend on the processing

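In FPKM 32 genes were called higher and 6 lower. Higher calls numbered 15 on reference transcripts only, 163 in scaled fragments (163 with the narrower fragment length spread), 10 in scaled fragments on reference transcripts, 13 without trend and robust, 17 with the replicate block, 150 in scaled fragments with the block, and 8 to 140 with each library left out (8 to 27 in FPKM, 94 to 140 in scaled fragments). Lower calls numbered 89 in scaled fragments (90 with the narrower spread), 3 on reference transcripts in scaled fragments, 1 with the replicate block, 88 in scaled fragments with the block, and 0 to 78 with each library left out. Members called higher numbered 1 on reference transcripts only in either unit and without trend and robust, 4 in scaled fragments (also with the narrower spread and with the block), 2 with the replicate block in FPKM, and 1 to 4 with each library left out. Correlations of same-numbered deviations over all tested genes were -0.018, -0.0024 and 0.0099, against -0.047 to 0.050 for libraries with unlike numbers. Counting noise at this depth can hide a shared origin, so whether the replicate numbers pair the libraries is not known.

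The log2 fold change of C5ar1 changed sign under quantile normalization (-0.011) and without control replicate 3 (-0.0053, and -0.0062 in scaled fragments), and ranged from -0.0062 to 0.077 with each library left out. The C1qa to C1qb ratio became -0.064 on reference transcripts. The C1qc to C1qb ratio ranged from -0.096 to 0.0075 with each library left out, and changed sign without control replicate 1 (0.00081) or stimulated replicate 1 (0.0075). The classical sum had a log2 ratio of 0.42 on reference transcripts and the receptor sum -0.11 in scaled fragments. Cfb passed in all 26 alternatives and C3 in 20 of 26. The cause of the lost calls was not tested. Few fragments limit Cfb in control BMMs and C4b.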
